A study of Mus musculus with 8 samples.

Results

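The D cyclins, their kinase partners and the inhibitors that hold them in check were followed at the RNA level in mammary tumors of 2 transgenic mouse models. The set comprised 10 genes, which were Ccnd1, Ccnd2 and Ccnd3, the kinase genes Cdk4 and Cdk6, the inhibitor genes Cdkn1b, Cdkn2a, Cdkn2b and Cdkn2c, and the retinoblastoma gene Rb1. All 10 were among the 14860 genes that the deposited table names, each through 1 row annotated with that gene alone. Each of 4 tumors per model, MMTV-Wnt1 and the double-transgenic MMTV-Wnt/ILK, was hybridized to its own Affymetrix Mouse Exon 1.0 ST array. Both groups carried mouse Wnt1 under the mouse mammary tumor virus promoter (MMTV), which is active mainly in mammary epithelium, and MMTV-Wnt/ILK mice carried human ILK, the integrin-linked kinase gene, under the same promoter in addition. All tumors arose in the mammary fat pads of nulliparous females, the parental MMTV-Wnt1 and MMTV-ILK lines had been backcrossed to FVB, and neither the age of a mouse nor a batch is given for a single array. MMTV-ILK tumors were not among the arrays, so ILK was compared only on top of Wnt1. Because whole tumors were profiled, fewer cells of a type and less RNA per cell cannot be told apart.

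D cyclins bind Cdk4 or Cdk6 when growth signals reach a resting cell, and the active kinase phosphorylates the retinoblastoma protein, which then releases E2F transcription factors and allows DNA synthesis to start. The Ink4 inhibitors encoded by Cdkn2a, Cdkn2b and Cdkn2c bind the kinases themselves, whereas p27, the product of Cdkn1b, acts mainly on cyclin-bound Cdk2. In the mammary gland, cyclin D1 is needed for lobuloalveolar growth in pregnancy, and Ccnd1 has long been described as a target of β-catenin and TCF. The study blotted cyclin D1 protein in tumors of these models with an antibody against cyclins D1 and D2. It reported more of the protein in MMTV-Wnt/ILK than in MMTV-Wnt1 tumors, but the blots are not analysed here. The paper also states that its arrays did not show this rise in cyclin D1 transcripts, and it points to their small number.

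Values are log2 intensities summarized per gene by RMA, in which a difference of 1 is a doubling, and they are compared between tumors but not between genes. Each difference is MMTV-Wnt/ILK minus MMTV-Wnt1, tested in limma, which moderates the variance of each row, over all 23332 rows of the table. For single genes the difference of means was also set against all 70 ways of assigning the 8 tumors to groups (exact permutation, two-sided), which can give no p below 0.029. Precision is limited by there being 4 arrays in each group. Actb had a lower mean in double-transgenic tumors (-0.55, SE 0.23). It was at 12.21 and 12.23 in MMTV-Wnt/ILK tumors 1 and 4 and at 13.17 and 12.90 in tumors 2 and 3. All MMTV-Wnt1 tumors lay between 13.16 and 13.21. Values taken relative to Actb move every difference up by the size of its own. The 6 negative differences given here for the 10 genes all turned positive on that scale. At an adjusted p under 0.05 limma called 0 of 23332 rows (0%), and 0 of the 10 genes. At an unadjusted p under 0.05 it listed 1193 rows (5.11% of those tested), 678 of them higher (2.91%) and 515 lower (2.21%) with ILK, and Rb1 was the 1 gene of the 10 among them. The groups did not overlap in 676 rows (2.9%), of which 344 (1.47%) were higher with ILK, again with Rb1 as the only one of the 10. In 4 of the 10 genes the double-transgenic mean was the higher one and in 6 the lower, against 40.8% higher and 59.2% lower over all named genes and 45.3% higher over all rows. Their median difference was -0.21, and that over all named genes was -0.05. This tally rested on single tumors: without MMTV-Wnt1 tumor 4 it was 6 higher and 4 lower with a median of 0.01, and the median was -0.07 without MMTV-Wnt1 tumor 2. Leaving out double-transgenic tumor 2 or 3 gave medians of -0.11 and -0.14. Within groups, the SD of the 10 genes ran from the 6.7th percentile of all rows for Ccnd3 to the 89.8th for Cdkn2b.

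**Figure D1:**
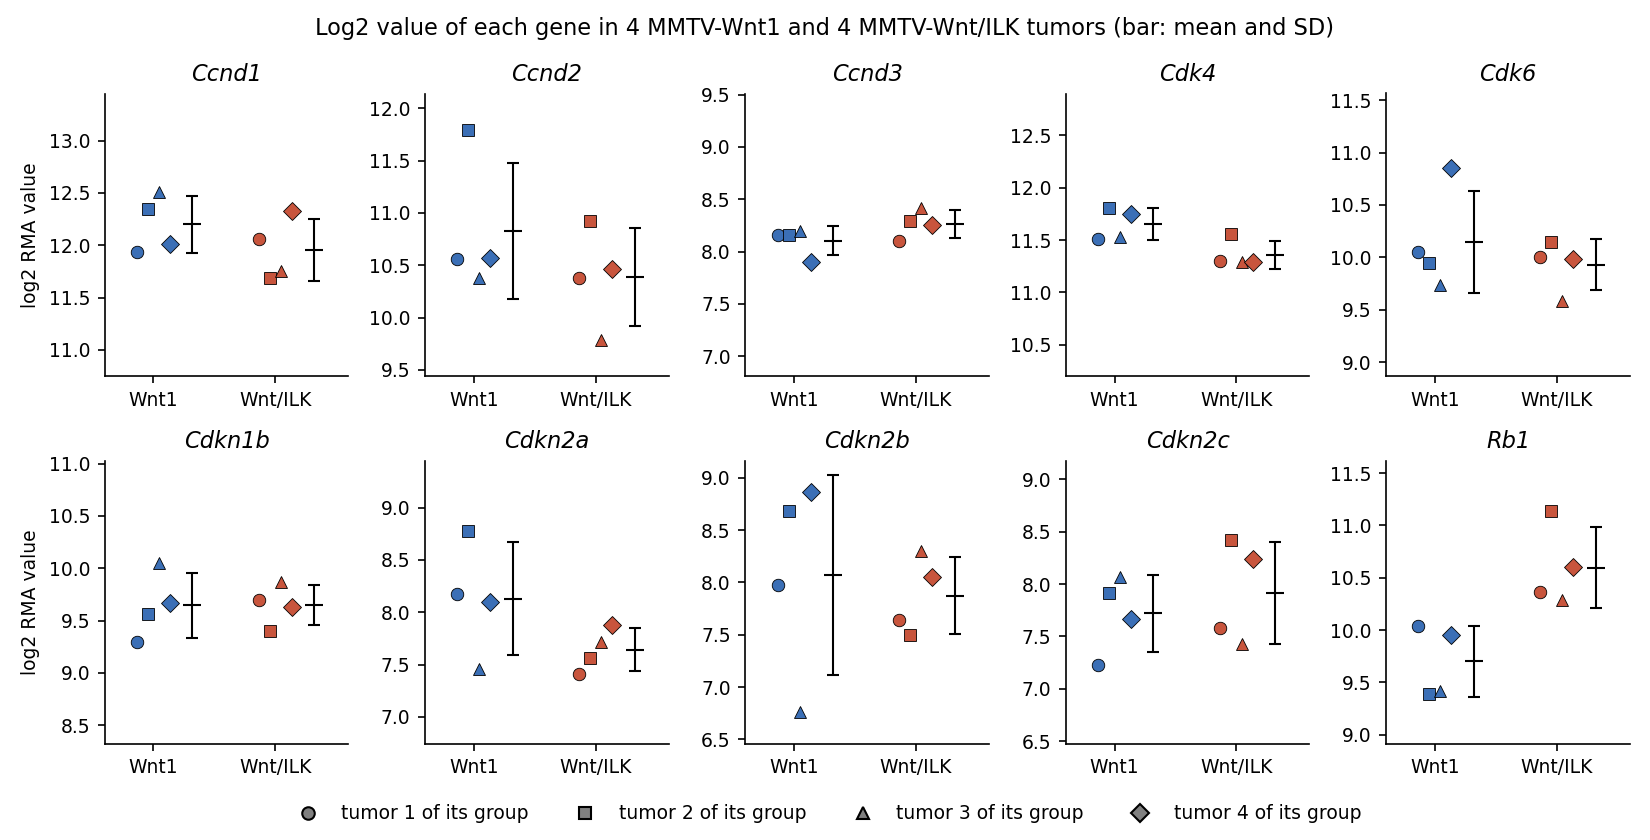
Log2 RMA value (vertical axis, each panel spanning the same height) of the 10 genes in each of 4 MMTV-Wnt1 tumors (blue) and 4 MMTV-Wnt/ILK tumors (red), with symbols for the tumor number and the mean and SD of each group beside them. Rb1 is the only panel in which the red and blue points do not overlap, with all 4 red points above.

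Libraries of some tumors stood apart in markers of other cells. Array medians lay between 6.89 and 7.23, and the correlation of any pair over all rows between 0.920 and 0.974. The epithelial markers Epcam, Cdh1 and Krt18, which define the tissue of origin, had a mean deviation of -0.19 to 0.39 log2 units from their 8-tumor means in MMTV-Wnt1 tumors and of -0.29 to 0.20 in MMTV-Wnt/ILK tumors. For 5 fat cell markers this deviation was 1.77 in MMTV-Wnt1 tumor 2 and between -0.53 and -0.01 in the other 7 tumors. For 6 fibroblast markers it was -2.51 in MMTV-Wnt1 tumor 3 and between -0.09 and 0.96 in the others, and the mean of all 6 was higher with ILK (median difference 0.82). Without MMTV-Wnt1 tumor 3, 4 of these markers were higher and 2 lower, with a median of 0.13. Skeletal muscle markers were highest in MMTV-Wnt1 tumor 1, at 1.26, and MMTV-Wnt/ILK tumor 3, at 2.22. Wnt1 itself differed by 0.29 (SE 0.27). The mouse Ilk row, which is not known to read the human transgene, differed by 0.14 (SE 0.15).

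Ccnd1, which encodes cyclin D1, was not distinguishable between the models at the RNA level. Ccnd1 had log2 values of 11.94, 12.35, 12.51 and 12.01 in MMTV-Wnt1 tumors 1 to 4 and of 12.06, 11.69, 11.75 and 12.33 in MMTV-Wnt/ILK tumors 1 to 4. The groups overlapped, with MMTV-Wnt/ILK tumors 2 and 3 below every MMTV-Wnt1 tumor and the other two within their range. The means were 12.20 ± 0.27 and 11.96 ± 0.29 (SD, n = 4 each), which left a difference of -0.24 (SE 0.20, 95% interval -0.71 to 0.22), with an adjusted p of 0.91 in limma and an exact permutation p of 0.29. Expressed as a fold, Ccnd1 RNA in MMTV-Wnt/ILK tumors was 0.844 of that in MMTV-Wnt1 tumors, and the 95% interval ran from 0.613 to 1.16. With any 1 tumor left out the difference stayed between -0.37 and -0.14.

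The 5 named genes whose values followed Ccnd1 most closely across the 8 tumors were Rxrb, Mcm5, Mki67, Vsig2 and Wee1. Their Pearson coefficients, given as a description over 8 tumors from 2 groups, were 0.979 for Rxrb, which encodes a retinoid X receptor, 0.938 for Mcm5, a subunit of the replicative helicase, 0.924 for the proliferation marker Mki67, 0.909 for Vsig2 and 0.908 for Wee1, the kinase that holds back Cdk1. Spearman's rho for the same genes ran from 0.81 for Wee1 to 0.95 for Rxrb. Rxrb itself varied little, between 8.70 and 8.87, while Mki67 spanned 8.61 to 9.78.

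Ccnd2, the D cyclin of ovarian granulosa and many blood cells, overlapped between the groups, with 1 tumor far above the others. Ccnd2 had log2 values of 10.56, 11.79, 10.38 and 10.57 in the MMTV-Wnt1 tumors and of 10.38, 10.92, 9.79 and 10.46 in the MMTV-Wnt/ILK tumors. MMTV-Wnt1 tumor 2 stood more than 1 unit above the rest of its group, and MMTV-Wnt/ILK tumor 3 was the lowest. The means were 10.83 ± 0.65 and 10.39 ± 0.46 (SD, n = 4 each), and the difference of -0.44 (SE 0.35, 95% interval -1.24 to 0.35) had an exact permutation p of 0.34. Without MMTV-Wnt1 tumor 2 it was -0.12. That tumor was also the one with the high fat cell markers, and its endothelial markers stood 1.01 above their 8-tumor means. The part of these cells in the Ccnd2 value was not tested.

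Ccnd3, the D cyclin needed for the expansion of immature lymphocytes, showed little spread. Ccnd3 had log2 values of 8.16, 8.16, 8.20 and 7.90 in the MMTV-Wnt1 tumors and of 8.10, 8.29, 8.42 and 8.25 in the MMTV-Wnt/ILK tumors. MMTV-Wnt/ILK tumors 2, 3 and 4 lay above all MMTV-Wnt1 tumors, and tumor 1 fell within their range. The difference of 0.16 (SE 0.14, 95% interval -0.16 to 0.48) had an exact permutation p of 0.17. A further row is annotated with both Ccnd3 and its pseudogene Ccnd3-ps and was not assigned to either.

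Cdk4, the kinase that forms the main partner of cyclin D1 in the mammary gland, was lower on average in MMTV-Wnt/ILK tumors but did not pass the test. Its promoter is printed because it stood out among the members with a promoter sequence by the number of E-boxes, the letters CACGTG read by Myc with Max and by related factors. The window runs from 250 bases before to 50 bases after the annotated start (RefSeq, GRCm38.p6, plus strand, chr10:127063285-127063584), written 5′ to 3′ with the E-boxes in capitals.
Cdk4 promoter: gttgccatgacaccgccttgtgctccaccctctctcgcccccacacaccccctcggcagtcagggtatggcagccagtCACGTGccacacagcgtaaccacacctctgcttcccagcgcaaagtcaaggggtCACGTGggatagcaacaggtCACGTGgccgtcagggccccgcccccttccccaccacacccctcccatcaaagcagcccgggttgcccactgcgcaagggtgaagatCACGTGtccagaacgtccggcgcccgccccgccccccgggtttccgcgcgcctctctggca
The 4 E-boxes begin at positions -172, -118, -98 and -11 from the start, counted in both orientations of a motif that is its own reverse complement. Of 32851 such windows over all genes, 7.15% held at least 1 CACGTG, and 8 windows of 6 genes held 4 or more. The match is a description of letters, and binding was not measured here.

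Cdk4 had log2 values of 11.51, 11.81, 11.53 and 11.75 in MMTV-Wnt1 tumors 1 to 4 and of 11.30, 11.56, 11.29 and 11.29 in MMTV-Wnt/ILK tumors 1 to 4. MMTV-Wnt/ILK tumors 1, 3 and 4 lay below every MMTV-Wnt1 tumor, and tumor 2 lay inside their range. The means were 11.65 ± 0.15 and 11.36 ± 0.14 (SD, n = 4 each). The difference of -0.29 (SE 0.14, 95% interval -0.61 to 0.04) had an unadjusted limma p of 0.0805, an adjusted p of 0.905 and an exact permutation p of 0.086. Of 17 other ways of processing or choosing tumors, 5 brought the unadjusted p under 0.05, and the adjusted p was 0.42 or more in each. Tspan31, which overlaps Cdk4 in the annotation and was looked up after the Cdk4 value was seen, differed by 0.05 (SE 0.17), and Os9, a neighbor farther along, by -0.0022 (SE 0.19). Myc, named here for the E-boxes and not by the rule, had means of 11.25 ± 0.07 and, with ILK, 11.46 ± 0.16 (SD, n = 4 each), and differed by 0.21 (SE 0.14).

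Cdk6, the second D cyclin kinase, overlapped between the groups. Cdk6 had log2 values of 10.05, 9.95, 9.74 and 10.85 in the MMTV-Wnt1 tumors and of 10, 10.15, 9.58 and 9.98 in the MMTV-Wnt/ILK tumors. MMTV-Wnt1 tumor 4 was the highest of all, and MMTV-Wnt/ILK tumor 3 the lowest. The difference was -0.22 (SE 0.25, 95% interval -0.80 to 0.36, exact permutation p = 0.51), and it was 0.01 without MMTV-Wnt1 tumor 4.

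**Figure D2:**
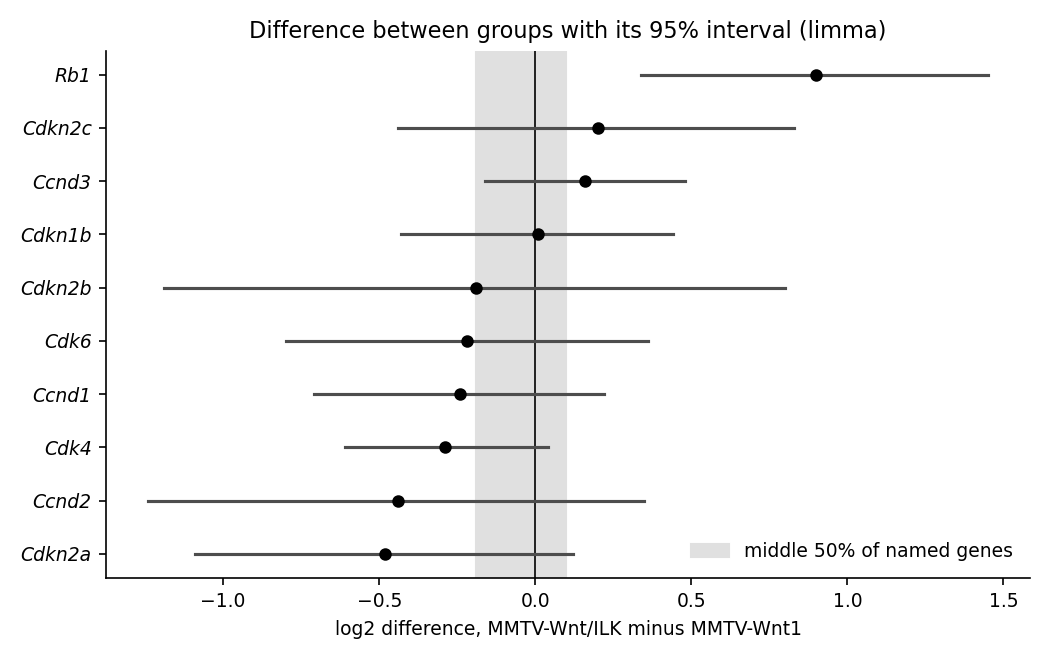
Log2 difference between MMTV-Wnt/ILK and MMTV-Wnt1 tumors (horizontal axis) for each of the 10 genes, ordered by size, with its 95% interval from limma (n = 4 tumors per group) and the middle 50% of the 14860 named genes in grey, from -0.19 to 0.10. The interval of Rb1, from 0.34 to 1.45, is the only one of the 10 that lies on one side of 0.

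Rb1 had the largest difference of the 10 genes. It encodes the retinoblastoma protein, the substrate through which the D cyclin kinases act on E2F. Rb1 had log2 values of 10.04, 9.39, 9.42 and 9.95 in MMTV-Wnt1 tumors 1 to 4 and of 10.36, 11.14, 10.29 and 10.60 in MMTV-Wnt/ILK tumors 1 to 4. Each double-transgenic value lay above every MMTV-Wnt1 value, with a gap of 0.25 between the groups, and MMTV-Wnt/ILK tumor 2 was the highest. The means were 9.70 ± 0.34 and 10.60 ± 0.38 (SD, n = 4 each). The difference was 0.90 (SE 0.24, 95% interval 0.34 to 1.45), or 1.86-fold (1.27 to 2.73). The exact permutation p of 0.029 is the smallest this design allows. In limma the unadjusted p was 0.00531 and the adjusted p 0.905, so Rb1 was not called. A difference of at least this size in either direction was found in 206 of the 14860 named genes (1.39%). Leaving out MMTV-Wnt1 tumor 3, which also took the fibroblast marker median down to 0.13, gave an Rb1 difference of 0.80. Fibroblast markers still varied among the other tumors, and the part of these cells in the Rb1 value was not tested. The smallest difference with 1 tumor left out was 0.72, without MMTV-Wnt/ILK tumor 2.

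The genes beside Rb1 in the genome, which were looked up after the Rb1 value had been seen, had smaller differences between the groups. Lpar6, a lysophosphatidic acid receptor gene that overlaps Rb1 in the annotation, had log2 values of 8.87, 9.99, 9.75 and 10.03 in the MMTV-Wnt1 tumors and of 9.57, 9.92, 9.61 and 9.44 in the MMTV-Wnt/ILK tumors. These overlapped throughout, and the difference was -0.02 (SE 0.27). Differences of -0.21 (SE 0.35) for Rcbtb2 and -0.33 (SE 0.43) for Cysltr2 on one side, and of 0.07 (SE 0.15) for Itm2b and 0.01 (SE 0.21) for Med4 on the other, were each smaller than their standard error. The difference between Rb1 and a neighbor was not itself tested. Across the 8 tumors the values most like those of Rb1 belonged to Asrgl1, an asparaginase gene, with a Pearson coefficient of 0.980, followed by Fam228a at 0.964, Olfr555 at 0.962, Smim3 at 0.956 and Isoc1 at 0.948. This too is a description chosen after the value was seen, over tumors of 2 groups that differ in Rb1.

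The Cdkn2a gene encodes 2 unrelated tumor suppressors from separate first exons, p16Ink4a, an inhibitor of Cdk4 and Cdk6, and p19Arf, which stabilizes p53. The table holds 1 value for the gene and none for either transcript alone. Both start regions are printed for that reason, each 300 bases long, 5′ to 3′ (RefSeq, GRCm38.p6, minus strand), with the GC boxes GGGCGG in capitals where they stand on the strand shown.
Cdkn2a upstream start, chr4:89294570-89294869: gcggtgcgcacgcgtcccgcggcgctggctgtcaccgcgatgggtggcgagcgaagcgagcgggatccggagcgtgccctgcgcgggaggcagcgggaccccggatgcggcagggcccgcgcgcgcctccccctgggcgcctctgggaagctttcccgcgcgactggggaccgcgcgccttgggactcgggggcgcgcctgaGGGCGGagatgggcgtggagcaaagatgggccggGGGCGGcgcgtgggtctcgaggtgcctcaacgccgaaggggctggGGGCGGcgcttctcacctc
Cdkn2a downstream start, chr4:89282143-89282442: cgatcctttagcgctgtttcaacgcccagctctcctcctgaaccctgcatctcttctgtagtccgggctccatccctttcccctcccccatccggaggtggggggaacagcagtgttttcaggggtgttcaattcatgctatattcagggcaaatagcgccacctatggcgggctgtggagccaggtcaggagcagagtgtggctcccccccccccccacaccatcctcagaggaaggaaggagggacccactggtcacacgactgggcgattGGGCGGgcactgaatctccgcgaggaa
The upstream window held 3 GC boxes and was 77.0% G and C, and the downstream window held 1 and was 60.3% G and C. Over both strands, 35.7% of all 32851 windows held the letters GGGCGG, which Sp1 reads. The letters TTTGGCG or TTTCGCG, forms of the E2F site, were found in 2.37% of all windows and in neither of these on either strand.

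Cdkn2a had log2 values of 8.17, 8.78, 7.46 and 8.10 in MMTV-Wnt1 tumors 1 to 4 and of 7.41, 7.56, 7.72 and 7.88 in MMTV-Wnt/ILK tumors 1 to 4. MMTV-Wnt1 tumors 1, 2 and 4 were higher than all MMTV-Wnt/ILK tumors, but MMTV-Wnt1 tumor 3 was lower than all but one of them. The means were 8.13 ± 0.54 and 7.64 ± 0.20 (SD, n = 4 each), and the difference of -0.48 (SE 0.27, 95% interval -1.09 to 0.12) had an exact permutation p of 0.14. It was -0.27 without MMTV-Wnt1 tumor 2 and -0.71 without MMTV-Wnt1 tumor 3, where the unadjusted limma p was 0.0127. The adjusted limma p was 0.472 or more under each of the 17 other ways.

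Cdkn2b encodes p15Ink4b, an inhibitor of Cdk4 and Cdk6 that TGF-β induces in epithelial cells, and lies next to Cdkn2a. Cdkn2b had log2 values of 7.98, 8.68, 6.76 and 8.86 in the MMTV-Wnt1 tumors and of 7.64, 7.50, 8.30 and 8.05 in the MMTV-Wnt/ILK tumors. The MMTV-Wnt1 tumors spanned more than 2 units and took in the whole MMTV-Wnt/ILK range. The difference was -0.19 (SE 0.44, 95% interval -1.19 to 0.80, exact permutation p = 0.77), and its sign turned when MMTV-Wnt1 tumor 2 or 4 was left out.

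Cdkn2a, Cdkn2b and 2 of the flanking genes, Mtap and Dmrta1, shared their lowest tumor among the MMTV-Wnt1 tumors, which was noticed in the values and is given as a description. Mtap, which salvages methylthioadenosine, had log2 values of 8.04, 9.34, 7.91 and 9.10 in the MMTV-Wnt1 tumors and of 8.12, 8.59, 8.36 and 8.30 in the MMTV-Wnt/ILK tumors. Dmrta1, a DM-domain gene on the far side of Cdkn2b, had log2 values of 4.67, 6.97, 3.86 and 6.27 and of 3.83, 4.35, 4.51 and 5.67. Of the 4 MMTV-Wnt1 tumors, tumor 3 was the lowest for Mtap, Cdkn2a, Cdkn2b and Dmrta1, and tumor 2 was the highest for all of them except Cdkn2b, which peaked in tumor 4. Ifne, an interferon gene beyond Mtap, ran otherwise, with log2 values of 4.90, 3.96, 4.70 and 4.26 in the MMTV-Wnt1 tumors, and was lowest in tumor 2. The Ifne row was dim, between the 7.2th and 17.5th percentile of an array, so its order across tumors carries little weight. Dmrta1 was dim in some tumors, down to the 7.8th percentile. Among the MMTV-Wnt/ILK tumors, Cdkn2a and Dmrta1 ranked the tumors alike, and Mtap and Cdkn2b each ranked them differently. A lowest value in MMTV-Wnt1 tumor 3 and a highest in tumor 2 were not particular to the locus. Tk1, of the S-phase list, had 6.99, 8.04, 6.72 and 7.62 in the MMTV-Wnt1 tumors. The myeloid marker Csf1r had 9.16, 10.15, 9.11 and 9.51, whereas Mki67 was lowest in tumor 4. Array medians were also higher in MMTV-Wnt1 tumors 2 and 4 (7.227 and 7.169) than in 1 and 3 (6.885 and 7.02). Tumor 2 carried the high fat cell markers and tumor 3 the low fibroblast markers, and the part of any of these in the pattern was not tested. Mtap and Dmrta1 differed between the groups by -0.25 (SE 0.33) and -0.85 (SE 0.68), and by 0.00 and -0.34 without MMTV-Wnt1 tumor 2.

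**Figure D3:**
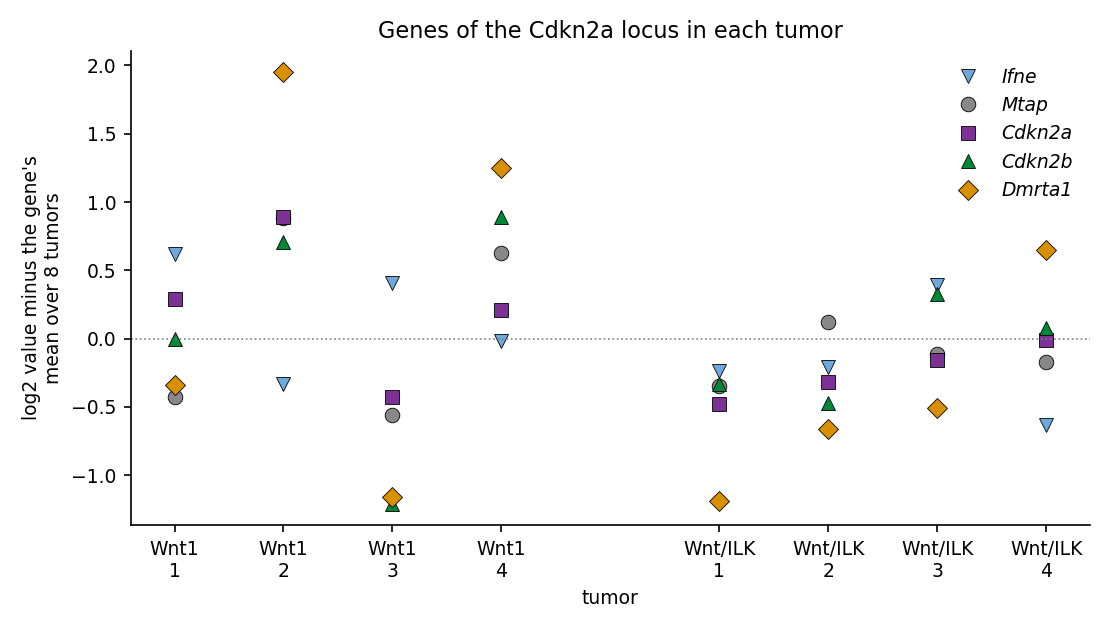
Log2 value minus the mean over the 8 tumors (vertical axis) of Ifne, Mtap, Cdkn2a, Cdkn2b and Dmrta1 in each tumor (horizontal axis, MMTV-Wnt1 on the left and MMTV-Wnt/ILK on the right). In MMTV-Wnt1 tumor 3 all but Ifne lie below 0, from -1.21 for Cdkn2b to -0.43 for Cdkn2a, and in MMTV-Wnt1 tumor 2 all but Ifne lie above it, from 0.71 for Cdkn2b to 1.95 for Dmrta1. The Ifne row was dim in every tumor.

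The remaining inhibitors did not separate the groups. Cdkn2c, which encodes p18Ink4c, had log2 values of 7.23, 7.91, 8.07 and 7.67 in the MMTV-Wnt1 tumors and of 7.58, 8.42, 7.43 and 8.24 in the MMTV-Wnt/ILK tumors. MMTV-Wnt/ILK tumors 2 and 4 lay above the MMTV-Wnt1 range and the other two inside it, and the difference was 0.20 (SE 0.28, 95% interval -0.44 to 0.83, exact permutation p = 0.51). Cdkn1b had log2 values of 9.30, 9.56, 10.05 and 9.67 and of 9.70, 9.40, 9.87 and 9.63. All MMTV-Wnt/ILK tumors lay inside the MMTV-Wnt1 range, and the difference of 0.01 (SE 0.19) had a 95% interval of -0.43 to 0.44 and an exact permutation p of 1.0.

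**Figure D4:**
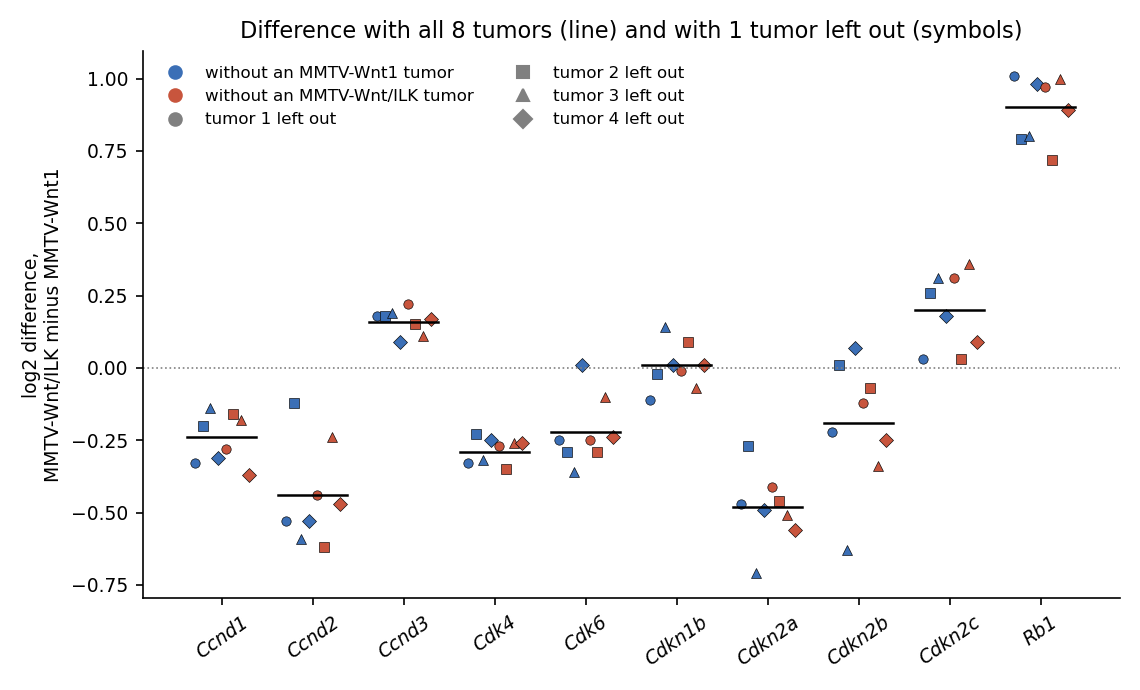
Log2 difference between MMTV-Wnt/ILK and MMTV-Wnt1 tumors (vertical axis) of each of the 10 genes with all 8 tumors (black line) and with 1 tumor left out (blue for an MMTV-Wnt1 tumor, red for an MMTV-Wnt/ILK tumor, symbols for its number). Rb1 stays between 0.72 and 1.01 and Ccnd1 between -0.37 and -0.14, while the values of Cdk6, Cdkn1b and Cdkn2b cross 0.

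Around the 10 genes, 9 lists of pathway genes were counted, and limma called 0 genes of any of them at an adjusted p under 0.05. Unless said otherwise, the genes named from a list are up to 3 with its smallest unadjusted p. Their small p and their separation between groups follow in part from that choice. Among the other CDK inhibitors, 3 of 4 were measured, 1 with a higher and 2 with a lower mean. Cdkn1a, which encodes the p53-induced inhibitor p21, had log2 values of 8.79, 10.10, 7.53 and 10.11 in the MMTV-Wnt1 tumors and of 7.52, 7.89, 8.42 and 7.63 in the MMTV-Wnt/ILK tumors. As with Mtap and Dmrta1, MMTV-Wnt1 tumors 2 and 4 were high and tumor 3 low, and tumor 3 lay within the MMTV-Wnt/ILK range. The difference of -1.27 (SE 0.55) had an unadjusted limma p of 0.0475, an adjusted p of 0.905 and an exact permutation p of 0.11, and it was -0.94 without MMTV-Wnt1 tumor 4. Cdkn1c, which encodes p57, differed by 0.09 (SE 0.21), and Cdkn3, a phosphatase of Cdk2, by -0.19 (SE 0.22).

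Of the genes of cyclin E, cyclin A and Cdk2, 6 of 7 were measured, with 2 means higher and 4 lower and a median of -0.08, which was 0.02 without MMTV-Wnt1 tumor 2 and -0.20 when MMTV-Wnt/ILK tumor 4 was left out. Cdc25a, the phosphatase that activates Cdk2, had log2 values of 8.41, 8.74, 8.85 and 8.77 in the MMTV-Wnt1 tumors and of 7.98, 8.26, 8.22 and 8.38 in the MMTV-Wnt/ILK tumors. Every MMTV-Wnt/ILK tumor lay below every MMTV-Wnt1 tumor, as in 332 of all rows (1.42%). The difference was -0.48 (SE 0.16), with an unadjusted limma p of 0.0143, an adjusted p of 0.905 and an exact permutation p of 0.029. Ccne2, a cyclin E gene, differed by -0.28 (SE 0.31) and Skp2, a ubiquitin ligase subunit that marks p27 for degradation, by -0.15 (SE 0.22).

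The pocket proteins, E2F and DP factors other than Rb1 were measured for 13 of 16 genes, of which 4 had higher and 9 lower means, with a median of -0.07 that moved between -0.17 without MMTV-Wnt1 tumor 1 and -0.02 without MMTV-Wnt1 tumor 2. E2f5 and E2f4, which bind the pocket proteins in resting cells, differed by 0.42 (SE 0.20) and 0.23 (SE 0.14). Lin54, a DNA-binding subunit of the DREAM complex, differed by -0.27 (SE 0.15). None of the 13 had an unadjusted p under 0.05, against 3.65% of all named genes.

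Targets of E2F and genes of mitosis mostly had lower means with ILK, without any gene passing the adjusted test. Of 20 measured S-phase genes (of 24), 4 had higher and 16 lower means (median -0.19), and of 15 measured mitotic genes (of 18), 1 had a higher and 14 a lower mean (median -0.26), beside 59.2% lower over all named genes. With single tumors left out the S-phase median ran from -0.10 (without MMTV-Wnt1 tumor 2) to -0.29 (without MMTV-Wnt1 tumor 1 or MMTV-Wnt/ILK tumor 4). The mitotic median ran from -0.12 without MMTV-Wnt/ILK tumor 3 to -0.41 without MMTV-Wnt/ILK tumor 4. MMTV-Wnt/ILK tumor 3 was the one with the highest muscle markers, and the part of muscle cells in the mitotic median was not tested. Relative to Actb, 19 of the 20 and all 15 were higher, with medians of 0.36 and 0.29 where the median of all rows was 0.52. Gins1, a subunit of the replicative helicase, had log2 values of 6.13, 6.98, 6.90 and 6.76 in the MMTV-Wnt1 tumors and of 5.68, 6.25, 5.70 and 5.50 in the MMTV-Wnt/ILK tumors. MMTV-Wnt/ILK tumor 2 lay just above MMTV-Wnt1 tumor 1, and the other three lay below the MMTV-Wnt1 range, a difference of -0.91 (SE 0.24) with an unadjusted limma p of 0.00431, an adjusted p of 0.905 and an exact permutation p of 0.057. Rrm1, the large subunit of ribonucleotide reductase, did not overlap between the groups, as in 332 of all rows in this direction (1.42%). It differed by -0.43 (SE 0.17, exact permutation p = 0.029), with an adjusted limma p of 0.905. The helicase subunit Mcm7 differed by -0.42 (SE 0.17) and the mitotic genes Top2a, Aurka and Aurkb by -0.47 (SE 0.25), -0.40 (SE 0.21) and -0.35 (SE 0.19).

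**Figure D5:**
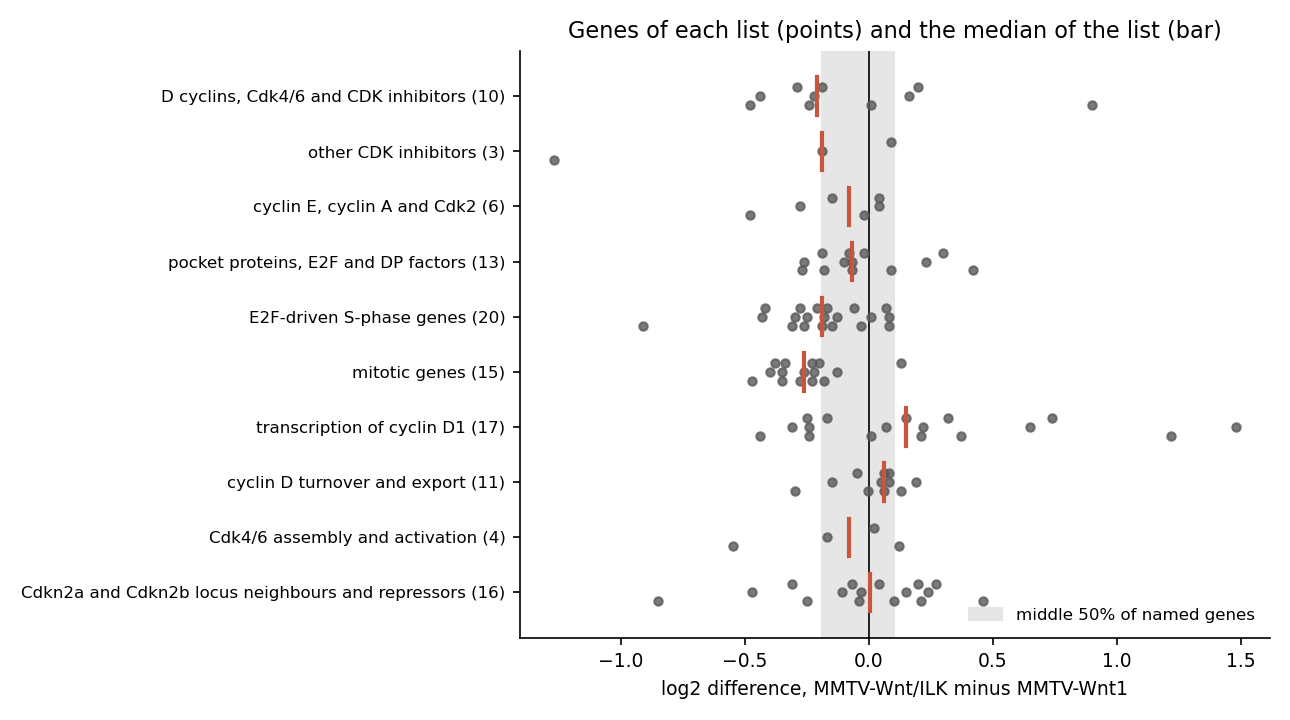
Log2 difference between MMTV-Wnt/ILK and MMTV-Wnt1 tumors (horizontal axis) of each measured gene (grey points) of the 10 genes and the 9 pathway lists (vertical axis, measured genes in brackets), with the median of each list (red bar) and the middle 50% of all named genes (grey band). The mitotic list has the lowest median, -0.26, and the regulators of cyclin D1 transcription have the highest, 0.15.

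Among regulators of Ccnd1 transcription, 17 of 18 were measured, with 11 means higher and 6 lower and a median of 0.15, or 0.05 without MMTV-Wnt1 tumor 2. Tcf7l2, which encodes the β-catenin partner TCF4, had log2 values of 9.51, 8.88, 9.04 and 9.44 in the MMTV-Wnt1 tumors and of 10.15, 9.93, 9.54 and 9.87 in the MMTV-Wnt/ILK tumors. The groups did not overlap, as in 344 of all rows in this direction (1.47%), although MMTV-Wnt/ILK tumor 3 and MMTV-Wnt1 tumor 1 were close. The difference was 0.65 (SE 0.20), with an unadjusted limma p of 0.0109, an adjusted p of 0.905 and an exact permutation p of 0.029. The other measured β-catenin and TCF/LEF genes, not named by the rule, went both ways. The β-catenin gene Ctnnb1 differed by -0.25 (SE 0.22), Lef1 by -0.31 (SE 0.40) and Tcf7l1 by 0.37 (SE 0.27). The estrogen receptor gene Esr1 and its pioneer factor gene Foxa1 differed by 1.22 (SE 0.50) and 1.48 (SE 0.53), each with 3 of 4 double-transgenic values above those of MMTV-Wnt1 tumors and an adjusted p of 0.905 in limma. The paper had already picked both from these arrays as raised with ILK, so their place in this list is no independent result. It also reported higher RNA of both by quantitative RT-PCR.

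Genes that act on the cyclin D protein and on kinase assembly had means in both directions. Of the genes for turnover and nuclear export of D cyclins, 11 of 14 were measured, with 7 means higher, 4 lower and a median of 0.06, which turned to 2 higher, 9 lower and -0.09 without MMTV-Wnt1 tumor 1. Xpo1, the nuclear exporter, differed by -0.30 (SE 0.21), Fbxo31, a ubiquitin ligase subunit for cyclin D1, by -0.15 (SE 0.14) and the cullin partner Rbx1 by 0.19 (SE 0.28), which turned to -0.11 without MMTV-Wnt1 tumor 1. Of the genes for assembly and activation of the kinases, 4 of 6 were measured, 2 higher and 2 lower, with a median of -0.08 that moved between -0.30 without MMTV-Wnt1 tumor 1 and 0.03 without MMTV-Wnt1 tumor 3. Hsp90aa1 and Cdc37, the chaperone and its kinase adaptor, differed by -0.55 (SE 0.40) and 0.12 (SE 0.13), and Mnat1, a subunit of the Cdk-activating kinase, by -0.17 (SE 0.21). The Hsp90aa1 row was dim, at 3.66 to 5.93 in the 8 tumors, and its difference was -0.25 without MMTV-Wnt1 tumor 3.

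All 16 listed neighbors and regulators of Cdkn2a and Cdkn2b were measured, 8 with higher and 8 with lower means. Not every regulator on this list is a repressor, Ets2 and Dmtf1 among them. The median was 0.0036, which moved between -0.20 without MMTV-Wnt1 tumor 1 and 0.15 without MMTV-Wnt1 tumor 4. Cbx7, a Polycomb subunit known to repress this locus, had log2 values of 7.56, 7.69, 7.74 and 7.81 in the MMTV-Wnt1 tumors and of 8.14, 7.96, 7.86 and 7.93 in the MMTV-Wnt/ILK tumors. The groups did not overlap, by a narrow margin, as in 344 of all rows in this direction (1.47%). The difference of 0.27 (SE 0.13) had an adjusted limma p of 0.905 and an exact permutation p of 0.029. Id1, which restrains Cdkn2a through Ets factors, differed by -0.47 (SE 0.23), and Twist1, a helix-loop-helix factor, by 0.46 (SE 0.24).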

How the data were processed

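The deposited table holds log2 values of 8 arrays, which the authors made with RMA (background correction, quantile normalization and summary per gene over core exons) in ArrayAssist. Their base is not stated, and a range of 1.21 to 13.86 was read as log2. The medians of the arrays differ, so median-centred and requantiled values were tried. Rows were named through the platform annotation, 14996 of 23332 with exactly 1 gene, and a gene with several rows was given the row with the highest mean. No 2 arrays were identical (0 pairs). The paper describes the tumors as independent.

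Groups were compared in limma 3.58.1 under R 4.3.3 (eBayes after lmFit, without covariates or a filter on dim rows, p-values adjusted after Benjamini and Hochberg across the table), and by exact permutation in Python 3.11.15. The limma step was also run on simulated rows drawn independently of each other, which genes of a tumor are not. Its outcome is not used here to judge which differences could have been called. The members and lists were chosen with earlier results of these data known. The genes named are the 10 members, Wnt1 and Ilk, up to 3 genes of each list with the smallest unadjusted p, and the 5 genes most correlated with Ccnd1. The others (Lpar6 and other neighbors, Myc, Ctnnb1, Lef1, Tcf7l1, Mtap, Dmrta1, Tk1, Csf1r, Actb, genes like Rb1) were chosen after values were seen or as checks. Alternatives were a variance trend with robust estimation, an equal-variance test, array weights, the tumor number as a block, each tumor left out, a second quantile normalization, median-centring, dropping the 25% dimmest rows, keeping rows with 1 gene only, averaging a gene's rows, and values relative to Actb. Promoters are those of RefSeq (GRCm38.p6), found for 7 of the 10 members in 10 windows.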

Additional observations from a re-analysis of the deposited data

Results flagged for a closer look

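Single tumors stood apart from the rest of their group in 7 of 98 gene and group combinations examined. For independent genes not picked by their values, chance would give about 1 in 20, or 4.9. Many genes here were picked for a small p and all share the same 8 tumors, so 7 was not tested against 4.9. Of the 7, 3 were in the D cyclin and kinase genes. Ccnd2 was at 11.79 in MMTV-Wnt1 tumor 2, against 10.38 to 10.57 in the others. Ccnd3 was at 7.90 in MMTV-Wnt1 tumor 4, against 8.16 to 8.20. Cdk4 was at 11.56 in MMTV-Wnt/ILK tumor 2, against 11.29 to 11.30. The mouse Ilk row was at 10.87 in MMTV-Wnt1 tumor 2, against 10.53 to 10.59. Rbx1 was at 7.27 in MMTV-Wnt1 tumor 1, against 8.42 to 8.52, and at 8.50 in MMTV-Wnt/ILK tumor 2, against 8.31 to 8.34. Cdc37 was at 9.48 in MMTV-Wnt/ILK tumor 4, against 9.33 to 9.35.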

How the results depend on the processing

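Across 17 alternatives without rescaling to Actb, the difference of Rb1 stayed positive, at 0.72 to 1.01 with 1 tumor left out and 0.87 to 0.95 otherwise, with an adjusted limma p of 0.418 to 1. Ccnd1 stayed negative, at -0.37 to -0.14 and -0.27 to -0.14. The equal-variance test, variance trend, dropped dim rows, replicate block, rows with 1 gene and averaged rows could not move these differences. Besides leaving out a tumor, only array weights, median-centring and the second quantile normalization could. Relative to Actb, whose mean was itself 0.55 lower in MMTV-Wnt/ILK tumors (-0.55, SE 0.23) so that the median of all rows moved to 0.52, the sign turned for Ccnd1 (0.31), Ccnd2 (0.11), Cdk4 (0.27), Cdk6 (0.33), Cdkn2a (0.07) and Cdkn2b (0.36). Cdkn1b turned with array weights (-0.0012) and median-centring (-0.01) and ranged from -0.11 to 0.14 with 1 tumor left out, Cdk6 from -0.36 to 0.01 and Cdkn2b from -0.63 to 0.07. Leaving aside the Actb scale, for which rows were not counted, no row was called in any alternative except without MMTV-Wnt/ILK tumor 2, where 13 were, none of them among the 10 genes (0 to 13 with 1 tumor left out). Of the 10 genes, 2 had an unadjusted p under 0.05 with the equal-variance test, the variance trend, array weights and median-centring, and 1 to 2 with 1 tumor left out. Rows at that unadjusted p numbered 2607 with array weights, 662 among rows with 1 gene, which are fewer, and 727 to 2010 with 1 tumor left out. The labels do not say that a number pairs tumors, so the numbers were not used as pairs. The deviations of same-numbered tumors correlated at 0.107, 0.132, 0.155 and -0.004, with 5 of 8 tumors closest to their own number. That is more than random matching among 4 candidates would give on average. Whether a number marks a shared batch was not tested. With the replicate block 1485 rows passed the unadjusted p, and the Rb1 difference was 0.90 and that of Ccnd2 -0.44, with an SE of 0.19 in place of 0.35 (adjusted limma p of 0.766 for both). It changed no call. With array weights, the lists on turnover and on the Cdkn2a locus counted 2 higher and 9 lower and 5 higher and 11 lower. Other causes were not tested. Tumor spread and 4 arrays a group limit what could be called.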
